A study of Mus musculus with 12 samples.

Results

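The type I hair keratins are the acidic keratins of the hair shaft, and 9 mouse genes of this family were examined: Krt31, Krt32, Krt33a, Krt33b, Krt34, Krt35, Krt36, Krt39 and Krt40. They were chosen by name, as every non-control array probe whose transcript accession maps to 1 of these symbols in RefSeq. All 9 had a probe and passed the filter on dim probes, and they stood among 17189 named genes tested. The members held 11 probes, since Krt36 and Krt40 had 2 each.

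RNA of 12 samples was hybridised to Agilent 2-colour mouse arrays, with the sample in Cy5 and a common pool of all conditions in Cy3 on every array. The sample groups are the 12 combinations of 2 genotypes, 2 days and 3 treatment levels, with 1 array each. The genotypes are labelled Eng+/-, carrying 1 modified allele of endoglin, a co-receptor for Tgf-β and Bmp ligands, and wt. The days are 50 and 90, and the treatment is clp, tpa or, where the title names none, written here as none. So the groups are Eng+/- none, Eng+/- clp, Eng+/- tpa, wt none, wt clp and wt tpa, each at 50 d and at 90 d. The sources used here do not give what the days count from, what clp and tpa stand for, the strain or the number of animals behind a sample. The none, clp and tpa arrays sit on separate slides (3 slides), so treatment and slide cannot be told apart, whereas a slide holds both genotypes and both days. The series title concerns endoglin and the hair follicle cycle, while the labels call every sample embryonic stem cells, and the word pool stands in the titles of both wt none samples.

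Hair keratins assemble as pairs of one acidic (type I) and one basic (type II) chain into the filaments that fill the cells of the growing hair, where keratin-associated proteins crosslink them. In the follicle they are made by cells that leave the matrix of the follicle and build the shaft, and their genes are off in the regressed and resting follicle. In human follicles Krt35 comes on first, in the matrix and precortex, Krt31, Krt33a, Krt33b and Krt36 follow in the cortex and Krt34 in its upper part, Krt32 marks the cuticle, and Krt39 and Krt40 appear late in the cuticle and upper cortex.

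The 9 genes lie on chromosome 11 in the RefSeq order Krt39, Krt40, Krt33a, Krt33b, Krt34, Krt31, Krt32, Krt35 and Krt36. No other coding gene lies among the last 7, and 38 coding genes, most of them keratin-associated protein genes, separate Krt40 from Krt33a. RefSeq promoters (build GRCm38.p6, 250 bases before to 50 bases after the start) matched 7 of the 9 members, and all 7 lie on the minus strand. Shown are the 5 that hold TATAAA, which the promoters of Krt36 and Krt39 do not. Capitals mark the motifs searched on both strands: TATAAA, and a LEF1/TCF core of CTTTG followed by AA, AT, TA or TT. No matches overlapped one another.

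Krt31, chr11:100050502-100050801, minus strand: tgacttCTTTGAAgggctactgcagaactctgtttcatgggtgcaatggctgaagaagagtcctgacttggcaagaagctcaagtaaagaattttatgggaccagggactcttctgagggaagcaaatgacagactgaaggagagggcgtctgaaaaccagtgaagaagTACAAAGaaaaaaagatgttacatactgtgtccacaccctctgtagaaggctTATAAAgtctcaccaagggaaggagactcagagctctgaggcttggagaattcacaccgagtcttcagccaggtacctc
Krt32, chr11:100088220-100088519, minus strand: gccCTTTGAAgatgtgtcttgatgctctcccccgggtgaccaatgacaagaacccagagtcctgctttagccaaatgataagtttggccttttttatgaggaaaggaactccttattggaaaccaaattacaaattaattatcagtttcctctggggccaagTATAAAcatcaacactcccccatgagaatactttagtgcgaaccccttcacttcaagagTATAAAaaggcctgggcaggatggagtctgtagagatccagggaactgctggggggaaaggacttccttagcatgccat
Krt33b, chr11:100029819-100030118, minus strand: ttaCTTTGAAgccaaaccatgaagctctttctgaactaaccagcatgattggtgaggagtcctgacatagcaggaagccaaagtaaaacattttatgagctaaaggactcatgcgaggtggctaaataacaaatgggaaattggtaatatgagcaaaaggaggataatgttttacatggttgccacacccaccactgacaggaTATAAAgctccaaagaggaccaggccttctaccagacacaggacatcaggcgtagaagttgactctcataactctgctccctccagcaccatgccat
Krt34, chr11:100041505-100041804, minus strand: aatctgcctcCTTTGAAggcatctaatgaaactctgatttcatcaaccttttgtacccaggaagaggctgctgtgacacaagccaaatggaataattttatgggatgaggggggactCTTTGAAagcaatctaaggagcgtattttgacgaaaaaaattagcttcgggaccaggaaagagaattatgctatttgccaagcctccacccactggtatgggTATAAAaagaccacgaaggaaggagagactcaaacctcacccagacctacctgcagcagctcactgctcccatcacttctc
Krt40, chr11:99543171-99543470, minus strand: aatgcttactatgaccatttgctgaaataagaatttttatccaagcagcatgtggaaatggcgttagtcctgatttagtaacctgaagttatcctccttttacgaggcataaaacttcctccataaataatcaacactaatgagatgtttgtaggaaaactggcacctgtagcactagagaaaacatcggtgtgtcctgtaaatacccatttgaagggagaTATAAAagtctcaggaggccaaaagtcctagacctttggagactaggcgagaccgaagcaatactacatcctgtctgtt

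Counted from the transcription start, TATAAA began at position -29 in Krt31, Krt32 and Krt40, at -31 in Krt34 and at -47 in Krt33b, with a further match at -88 in Krt32. Of the 7 promoters 5 held TATAAA on either strand, against 13.6% of all 32851 promoters in the table. With the motif starting 45 to 15 bases before the start on the gene's own strand, the count was 4 of 7 against 2.25%. The form CTTTGAA lay at -244 in Krt31, at -247 in Krt32 and Krt33b, and at -240 and -133 in Krt34. On the reverse strand Krt31 had a match at -81 and Krt39 at -19. In all, 5 of 7 promoters held a LEF1/TCF core against 16.9% of all promoters, and Krt36 held neither motif. These are matches of letters in a window, related genes share sequence, and binding was not measured.

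The scans set an upper limit on these genes. The probes of Krt31, Krt33a, Krt33b, Krt34 and Krt35 were saturated in Cy5 on 3 to 7 of the 12 arrays (Krt33a 7, Krt34 5, Krt31 and Krt35 4, Krt33b 3), 23 spots in all, and the other 4 members on none. No member was saturated in Cy3. In Cy5, 6 members were well above background on all 12 arrays, Krt32 and Krt40 on 11 and Krt39 on 8. For a sample whose spot was saturated or not well above background only a bound can be given, written below as "at least N-fold" from the normalised Cy5 signals. Over the whole arrays the median Cy5 intensity was 166.5 to 573, the median Cy3 intensity 99 to 140, and 65.67 to 77.68% of spots were well above background in Cy5. Of 6 embryonic stem cell markers, Pou5f1, Zfp42 and Esrrb were not tested. Their probes were dim or carried outlier flags, and these reasons were not told apart. Nanog and Dppa5a were above background in Cy5 on 12 arrays and Sox2 on 7. By contrast, the epidermis genes Krt5 and Lor and the fibroblast genes Col1a1 and Col3a1 were saturated in Cy5 on all 12 arrays.

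The modified gene was checked first. The Eng+/- array read lower for Eng than its wt array in 5 of 6 pairs, with log2 differences of -1.19 (none 50 d), -0.28 (none 90 d), -0.98 (clp 50 d), -1.61 (clp 90 d) and -1.16 (tpa 90 d). In the tpa 50 d pair Eng stood 0.63 higher on the array labelled Eng+/-, so that label could not be checked by its gene. Without that pair the median genotype difference of the members was -1.85, in place of -1.56 with it. Over all pairs the Eng difference was -0.77 ± 0.26 (SE, 12 arrays), which did not pass the threshold of 0.05 (limma, adjusted p = 0.403).

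All 9 genes ordered the arrays in nearly the same way. In 9 of 9 the 3 lowest arrays were Eng+/- none at 90 d and both tpa arrays at 50 d. The share of all features with the same 3 lowest arrays was not counted. In Krt32, Krt36, Krt39 and Krt40, which were never saturated, the highest was a clp array at 50 d. Averaged over the members, the log2 ratio of sample to pool was 1.26 and 1.19 on the 50 d clp arrays (Eng+/- and wt), -3.96 and -4.48 on the 50 d tpa arrays, and -5.05 on the Eng+/- none 90 d array. The other 7 arrays lay between 0.76 and -1.29. In RNA of whole samples, fewer hair-forming cells and less keratin RNA per cell cannot be told apart.

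**Figure D1:**
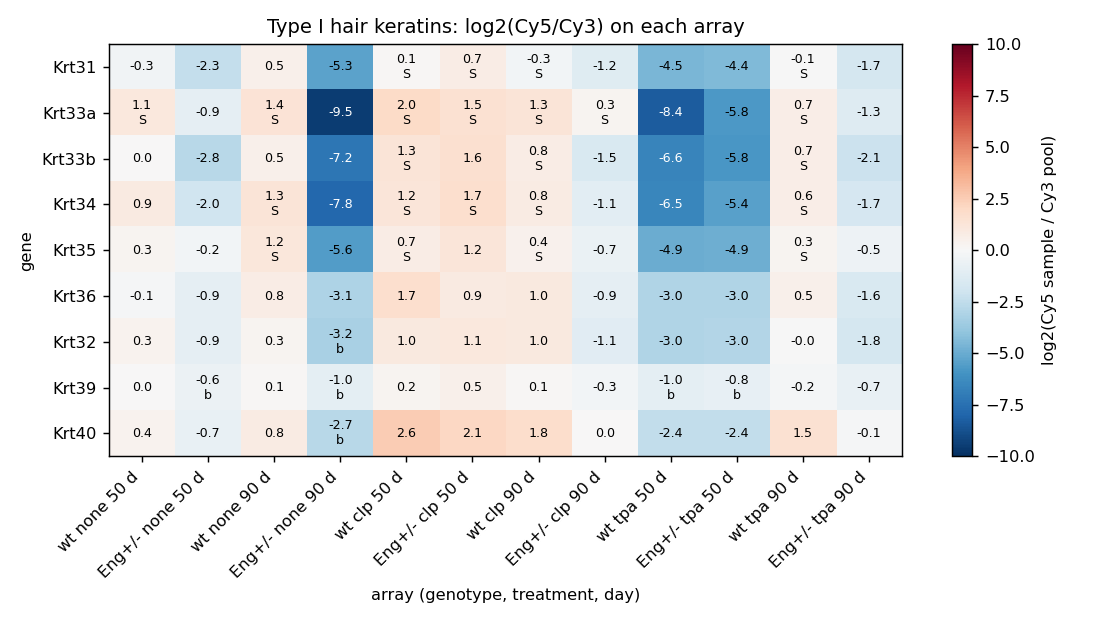
Normalised log2 ratio of Cy5 (sample) to Cy3 (pool) for the 9 type I hair keratins (rows) on the 12 arrays (columns, 1 sample each; "none" means that the title names no treatment). S marks a spot saturated in Cy5 and b a spot not well above background in Cy5. The dark blue columns are Eng+/- none at 90 d (mean -5.05) and both tpa arrays at 50 d.

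Krt33a, a cortical keratin, had the widest span. Its Cy5 intensity was 392 on the Eng+/- none 90 d array and at saturation (65528) on the wt array of the same day. With tpa at 50 d it read 511 (wt) and 3124.5 (Eng+/-). It was saturated on all 4 clp arrays and on 7 arrays in all, so that the high end of its range was not measured. Its log2 ratio ran from -9.46 to 1.95.

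Krt33b, Krt34 and Krt31, all cortical, showed the same order within narrower spans. The log2 ratio of Krt34 was -7.85 on the lowest array and 1.67 on the highest, that of Krt33b -7.20 and 1.60, and that of Krt31 -5.34 and 0.72. On the array lowest in log2 ratio for these 3 genes, Eng+/- none at 90 d, Cy5 intensities were 674 for Krt34, 980 for Krt33b and 4677 for Krt31, all well above background. The low arrays thus still gave a signal for the main cortical keratins.

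Krt35, the early matrix and precortex keratin, ran from -5.55 to 1.25, and its Cy5 intensity from 2651 on wt tpa at 50 d to saturation on 4 wt arrays. Krt36, a cortical keratin that was never saturated, ran from -3.07 to 1.67 in log2 ratio. Its Cy5 intensities were 687 and 721.5 on the 50 d tpa arrays (Eng+/- and wt), 956.5 on Eng+/- none at 90 d, and 29786 on wt clp at 50 d. These 3 arrays were named from the members' own values, Krt36 among them, so their distance from the other 9 is a description. On those 9 the log2 ratios of Krt36 were -1.55 or higher.

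Among the keratins of the cuticle, Krt32 read 96 (wt) and 122 (Eng+/-) with tpa at 50 d and 104 on Eng+/- none at 90 d, where it was not well above background. On the wt clp arrays Krt32 read 6578 (50 d) and 6696 (90 d). Its log2 ratio ran from -3.24 to 1.08. Krt39 had a Cy5 intensity of 71 to 616, was well above background on 8 of 12 arrays, and its log2 ratio ran from -0.98 to 0.52.

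Krt40, a late keratin in human hair, was never saturated and is given array by array. With clp its Cy5 intensity was 19271 (wt) and 2572.5 (Eng+/-) at 50 d and 9682.5 (wt) and 720.5 (Eng+/-) at 90 d. On the none arrays it was 1019 (wt) and 292 (Eng+/-) at 50 d and 1628 (wt) and 84 (Eng+/-) at 90 d, the last not well above background. With tpa it was 90.5 (wt) and 118 (Eng+/-) at 50 d and 5689 (wt) and 1447 (Eng+/-) at 90 d. In log2 ratio the clp arrays stood at 2.56, 2.09, 1.79 and 0.04, the none arrays at 0.38, -0.71, 0.82 and -2.75, and the tpa arrays at -2.43, -2.45, 1.51 and -0.14, each in the order wt 50 d, Eng+/- 50 d, wt 90 d and Eng+/- 90 d. The clp range overlapped with both others.

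The members correlated closely with one another over the 12 arrays (Pearson's r 0.854 to 0.993, median 0.955, as a description: the arrays share the pool and the 3 arrays low in every member). Both genes with a second probe gave a similar order with smaller differences. The second probe of Krt36 correlated with the first at 0.97 and that of Krt40 at 0.95. For Krt36 the genotype difference was -1.56 by the brighter probe and -0.47 by the other, and for Krt40 the clp difference was 2.19 and 0.82. Hair keratins resemble one another in sequence, the probe sequences were not used here, and cross-hybridisation was not tested.

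In the genes with saturated spots the pool channel varied too. Although the same pool was hybridised on every array, the Cy3 intensity of Krt33a ran from 2130 on wt clp at 50 d to 25948.5 on wt tpa at 50 d, 12.2-fold. The span was 3.80-fold for Krt33b, 3.64-fold for Krt34, 2.70-fold for Krt35 and 2.42-fold for Krt31, each lowest on wt clp at 50 d. It was 1.89-fold for Krt32, 1.86-fold for Krt40, 1.76-fold for Krt36 and 1.39-fold for Krt39, against a median of 1.77-fold over all 25108 features. Over the 12 arrays log2 Cy5 and log2 Cy3 correlated at -0.62 for Krt33a, -0.53 for Krt34 and -0.51 for Krt33b, and at 0.59 for Krt40 and 0.55 for Krt39 (median over all features 0.24). For the former genes the ratio thus held part of its span in the pool channel. By Cy5 alone the genotype difference of Krt33a was -1.07 and its clp difference 1.85, and those of Krt34 were -1.80 and 1.84 and of Krt33b -2.05 and 2.08.

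**Figure D2:**
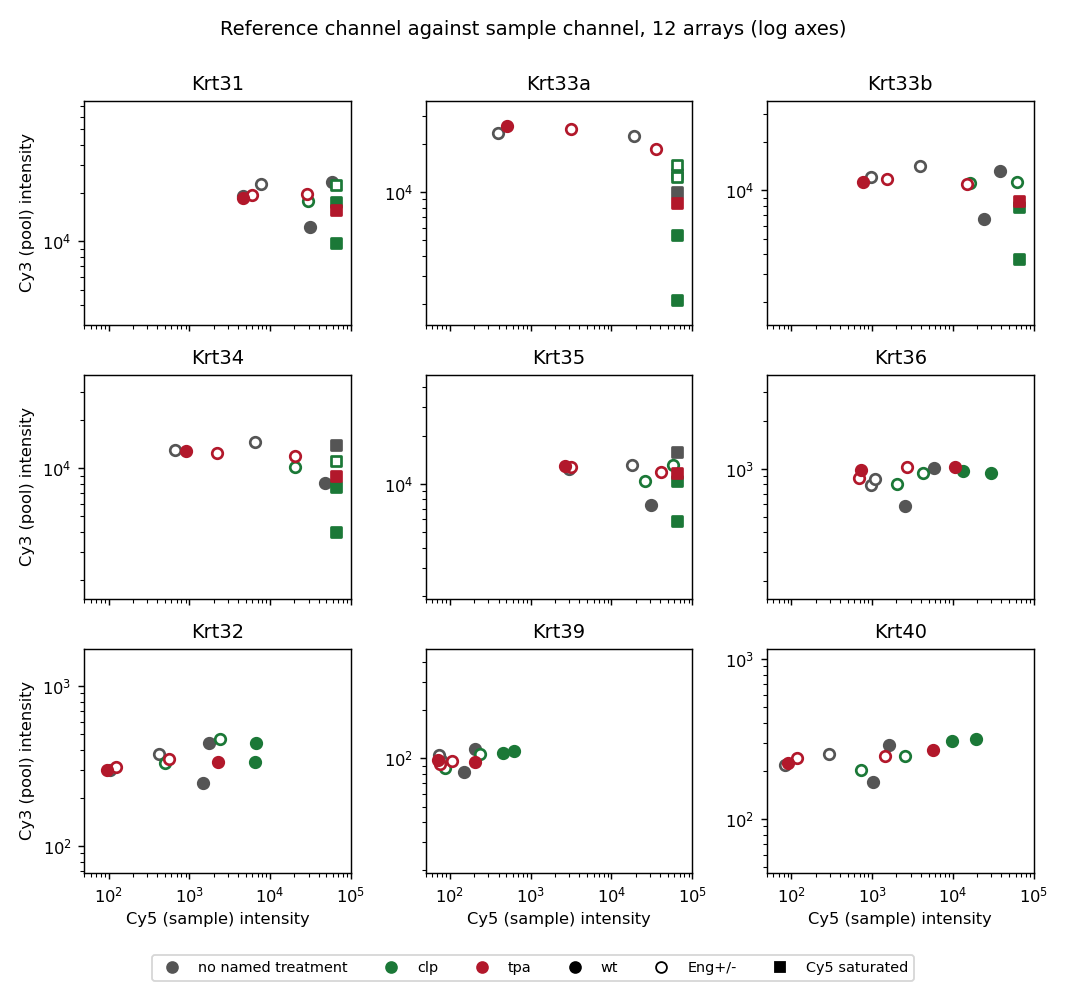
Cy3 (pool) against Cy5 (sample) median intensity of each member on the 12 arrays, log axes, 1 point an array; colours give the treatment, filled points wt, open points Eng+/-, and squares a spot saturated in Cy5. For Krt33a the Cy3 signal falls from 25948.5 to 2130 towards the saturated arrays, while Krt36 and Krt40 show no such fall.

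The genotype comparison asks how Eng+/- and wt samples differ over the days and treatments. All 9 keratins were lower in Eng+/- on average, with a median log2 difference of -1.56 against -0.01 over all features, and none passed the threshold over all features (limma, 0 of 9; 0% of 25108 features were called). The cortical keratins Krt34 and Krt33b stood at -2.44 ± 1.16 and -2.43 ± 0.96 (SE), Krt33a at -2.27 ± 1.44 and Krt31 at -1.62 ± 0.74. Krt35 stood at -1.43 ± 0.84, Krt32 at -1.42 ± 0.44 and Krt39 at -0.35 ± 0.17. Krt36 (-1.56 ± 0.43) and Krt40 (-1.42 ± 0.40) were lower on the Eng+/- array in 6 of 6 pairs, Krt33a in 5 and the other 6 members in 4. However, Krt33a with clp at either day and Krt31 and Krt34 with clp at 50 d were saturated on both arrays of the pair. Krt33b and Krt35 with clp at 50 d were saturated on the wt array. The values of Krt31, Krt33a, Krt33b, Krt34 and Krt35 rest partly on saturated spots: with those left out Krt31 stood at -2.57, Krt33b at -3.27 and Krt35 at -0.25, and Krt33a and Krt34 could not be fitted. Without the Eng+/- none 90 d array the median was -0.99, with -0.55 for Krt33a, -0.38 for Krt35 and -1.10 for Krt36. Adjusted p-values were 0.403 to 0.525, and 4 members had an unadjusted p under 0.05 (Krt32, Krt33b, Krt36 and Krt40), against 11.9% of all features.

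The 6 pairs differed widely. In the none 90 d pair the median over the members was -5.83, and 9 of 9 were at least 2-fold lower in Eng+/-, as were 4.35% of all features. In that pair Krt33a was at least 507-fold lower, Krt34 at least 295-fold and Krt35 at least 63.8-fold. Krt40, Krt32 and Krt39, not well above background on the Eng+/- array, had log2 ratio differences of -3.57, -3.55 and -1.06. The members measured on both arrays of it stood at -7.68 (Krt33b), -5.83 (Krt31) and -3.83 (Krt36). Each of these values compares 1 array with 1 array. Over all features the Eng+/- none 90 d array correlated at 0.969 with wt tpa at 50 d and at 0.957 with Eng+/- tpa at 50 d. With its own wt array it correlated at 0.681. Its median Cy5 intensity was 573 against 217 on that wt array, and 1846 against 563 spots were saturated in Cy5. Eng stood at -0.28 in this pair. What sets this array apart was not tested.

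In 3 further pairs the members were lower in Eng+/- by less. In the none 50 d pair the median was -1.20 and 6 of 9 members were at least 2-fold lower (4.04% of features), with Krt34 and Krt33b at -2.87 and -2.85. With clp at 90 d the median was -1.74 and 6 of 9 were at least 2-fold lower (4.9% of features) and 0 higher (2.06%), though for Krt35, saturated on the wt array, the bound was at least 1.92-fold. With tpa at 90 d the median was -1.77 and 7 of 9 were at least 2-fold lower (1.29% of features), with Krt33b at least 5.15-fold lower and a bound of at least 1.77-fold for Krt33a. The lower side held 9 of 9 members at none 50 d and with tpa at 90 d, and 8 of 8 with clp at 90 d, where Krt33a was saturated on both arrays.

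In the last pairs, clp and tpa at 50 d, the medians lay near 0. With clp the median log2 ratio difference was 0.29, but Krt31, Krt33a and Krt34 were saturated on both arrays and Krt33b and Krt35 on the wt array. The members measured on both arrays stood at 0.29 (Krt39), 0.07 (Krt32), -0.47 (Krt40) and -0.75 (Krt36). By log2 ratio 0 of 9 were 2-fold lower in that pair (0.546% of features), which was not measured for the saturated members. With tpa the median was 0.14, 0 of 9 were 2-fold lower (0.231% of features), and Krt33a (2.60) and Krt34 (1.10) were at least 2-fold higher on the array labelled Eng+/- (0.207% of features).

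**Figure D3:**
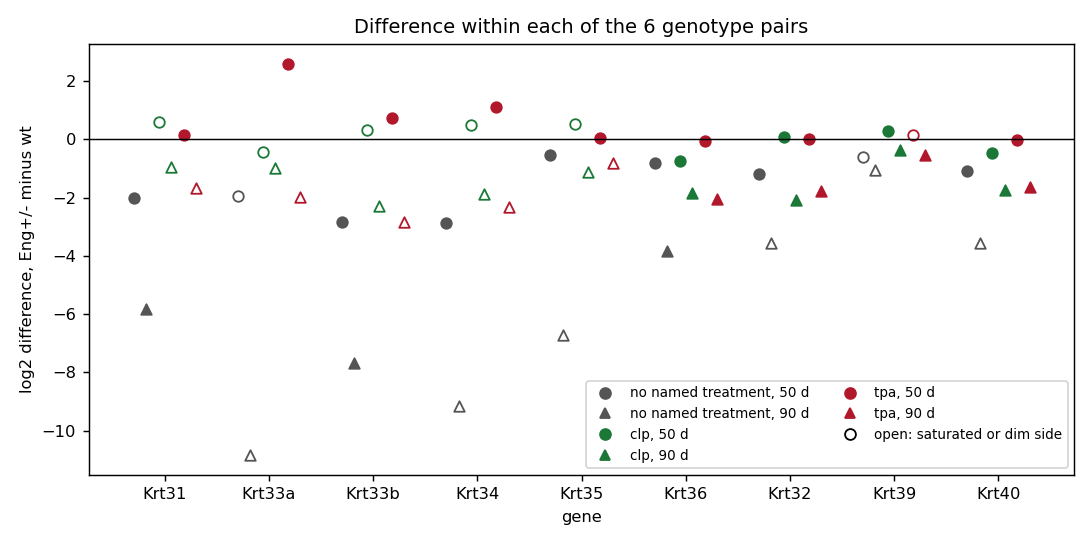
Log2 difference, Eng+/- minus wt, of each type I hair keratin within each of the 6 genotype pairs (1 array against 1 array, so no error bars); circles are 50 d, triangles 90 d, colours the treatment, and open symbols a pair with a saturated or dim spot. The none 90 d pair lies lowest in every member (median -5.83), and the 50 d clp and tpa pairs lie around 0.

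By log2 ratio the genotype difference was more negative at 90 d than at 50 d in every member. The model with all pairwise interactions leaves 2 residual degrees of freedom. In it the difference of differences was -1.79 ± 0.27 for Krt40, -2.03 ± 0.40 for Krt36 and -2.10 ± 0.25 for Krt32. For Krt33b and Krt33a, saturated on 3 and 7 of 12 arrays, it was -3.66 ± 0.52 and -4.68 ± 1.46. The values of Krt31, Krt33a, Krt33b, Krt34 and Krt35 rest partly on saturated spots and are not measured sizes. The difference of differences had an unadjusted p under 0.05 in 9 of 9 members (0.000196 for Krt32 to 0.0311 for Krt35), against 3.57% of all features, and was called in 0 of 9 (limma, adjusted p 0.214 to 0.98, 0% of features). With median centring in place of loess 6 members were called (0.585% of features) and with Cy5 alone 1 (0.116%). The genotype by treatment test called 0 of 9 (limma, adjusted p = 0.9998; 0% of features), with 7 members at an unadjusted p under 0.05 against 2.83%. The members share arrays, so these counts are not separate tests of the pattern.

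The clp comparison sets the 4 clp arrays against the 4 none arrays. Krt40, the late cuticle keratin, rose by 2.19 ± 0.49 on the log2 scale (limma, adjusted p = 0.0307) and was higher in 4 of 4 pairs of the same genotype and day (0.96 to 2.80). It was 1 of 9 members called, against 9.86% of all features called and 5.67% called higher. The other 8 did not pass, though all 9 differences were positive (median 1.73, all features 0.01) and 5 had an unadjusted p under 0.05 (27.6% of features). Of the cortical keratins Krt33b stood at 2.91 ± 1.18, Krt34 at 2.57 ± 1.42, Krt31 at 1.73 ± 0.90 and Krt36 at 1.49 ± 0.53, and Krt33a, saturated on all 4 clp and 2 of 4 none arrays, has no fold (limma, adjusted p = 0.279). Krt35 stood at 1.51 ± 1.03, Krt32 at 1.36 ± 0.54 and Krt39 at 0.51 ± 0.21. Krt31, Krt33b, Krt34 and Krt35 were saturated on both wt clp arrays, so their values are not measured sizes. Krt31 and Krt34 were also saturated on Eng+/- clp at 50 d, and Krt34 and Krt35 on wt none at 90 d. With saturated spots left out Krt33b stood at 4.05 and did not pass. Krt35 then had a larger clp difference and passed (limma, adjusted p = 0.0247).

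The clp difference varied between the 4 pairs. In Eng+/- all 9 members were higher with clp at 50 d (median 2.40) and at 90 d (median 4.13). In wt 8 were higher at 50 d (median of 9 log2 ratios 0.69), with Krt33a saturated on both arrays. In wt at 90 d (median 0.01) 5 were higher. Krt31, lower in log2 ratio, was saturated on the clp array, and Krt33a, Krt34 and Krt35 were saturated on both arrays. The direction of Krt31, Krt33a, Krt34 and Krt35 was thus not measured there. The 90 d value in Eng+/- is set against the array that is lowest in 8 of the 9 genes. The call on Krt40 was lost with the authors' processed signals (limma, adjusted p = 0.0994) and on leaving out any 1 of 8 arrays: the 4 clp arrays, both tpa 90 d arrays and both none 50 d arrays (limma, adjusted p up to 0.102). Without the wt none 90 d array 8 members were called (9% of features), all but Krt39, and the median was 2.99. Leaving out Eng+/- none at 90 d instead gave a median of 0.65, with 0.56 for Krt34 and 0.46 for Krt31, and Krt40 was called at 1.54 (limma, adjusted p = 0.0118; 20.6% of features called).

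The tpa comparison uses the same none arrays as the clp comparison. All 9 differences were negative (median -1.06, all features -0.0014), from -1.71 ± 1.76 for Krt33a to -0.31 ± 0.49 for Krt40, and 0 of 9 passed (limma, adjusted p 0.248 to 0.702; 0% of features). No member had an unadjusted p under 0.05, against 25.7% of all features. These averages join opposite signs. At 50 d all 9 members were lower with tpa in wt (median -4.21). All 9 log2 ratios were lower in Eng+/- at 50 d too (median -2.14), though Krt39 was not well above background on either array. At 90 d the median was -0.33 in wt, where Krt33a, Krt34 and Krt35 were saturated on both arrays, and 3.62 in Eng+/-, where all 9 were higher. Without the Eng+/- none 90 d array 7 members were called lower (all but Krt39 and Krt40; 21.1% of features were called in either direction), from -4.28 for Krt33a to -1.63 for Krt36, and without the wt array of that day Krt31, Krt33a, Krt33b, Krt34, Krt35 and Krt40 turned positive (0.16 to 0.87).

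The day comparisons ask how 90 d differs from 50 d within each treatment, with 1 pair of arrays in each genotype. With tpa all 9 keratins were higher at 90 d in both genotypes, with a median of 4.49 in wt and 2.68 in Eng+/-. In wt Krt33a was at least 130-fold higher at 90 d, Krt33b at least 85.8-fold, Krt34 at least 74.7-fold, Krt35 at least 26.7-fold and Krt31 at least 15.8-fold. In Eng+/- the members measured on both arrays stood at 4.46 (Krt33a), 4.40 (Krt35), 3.74 (Krt34), 3.71 (Krt33b), 2.68 (Krt31), 2.31 (Krt40), 1.49 (Krt36) and 1.17 (Krt32). Krt39 was not well above background on either 50 d array, and its log2 ratio difference over both genotypes was 0.43 ± 0.30.

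Over both genotypes 0 of 9 passed (limma, adjusted p 0.625 to 0.9998; 0% of features), and 8 of 9 had an unadjusted p under 0.05 against 5.52% of all features. Krt40 stood at 3.12 ± 0.69 (adjusted p = 0.625), Krt36 at 2.47 ± 0.75, Krt35 at 4.82 ± 1.46 and Krt33b at 5.48 ± 1.67. Krt33b and Krt35 were saturated on wt tpa at 90 d, so their values are not measured sizes. The none 90 d pair was also left out, a choice made after seeing that its Eng+/- array stands apart in these genes. Krt35 (4.82 ± 0.36) and Krt40 (3.12 ± 0.39) then passed (limma, adjusted p = 0.02 and 0.0493, 0.0757% of features called). That pair is not part of this comparison, so the differences stayed the same and only the spread left by the model fell. These 2 passes are a description.

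With clp the day difference had the other sign. All 9 log2 ratios were lower at 90 d in both genotypes, with a median of -0.38 in wt and -1.95 in Eng+/-. In wt Krt31, Krt33a, Krt33b, Krt34 and Krt35 were saturated on both clp arrays, so their wt direction was not measured. 0 of 9 passed (limma, adjusted p 0.449 to 0.902; 0% of features). Over both genotypes Krt40 stood at -1.41 ± 0.69, Krt36 at -1.25 ± 0.75, Krt32 at -1.11 ± 0.77 and Krt33b at -1.80 ± 1.67. In Eng+/- Krt34 was at least 4.38-fold and Krt31 at least 2.87-fold lower at 90 d, and Krt33a, saturated on all 4 arrays, has no fold. No member had an unadjusted p under 0.05 (11.9% of features).

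On the none arrays the genotypes went apart. In wt 7 of 8 members were higher at 90 d (-0.01 for Krt32 to 0.87 for Krt35, whose 90 d spot was saturated), and Krt33a was saturated on both arrays (median of 9 log2 ratios 0.44). In Eng+/- all 9 log2 ratios were lower at 90 d, with a median of -3.00 and -8.58 for Krt33a, -5.84 for Krt34, -5.30 for Krt35 and -4.39 for Krt33b. Krt39 was not well above background on either of these arrays, so its direction was not measured. Over both genotypes 0 of 9 passed (limma, adjusted p 0.84 to 0.924; 0% of features), and no member had an unadjusted p under 0.05 (4.82% of features). The day by treatment test over the 3 treatments called 0 of 9 (limma, adjusted p 0.31 to 0.527; 0% of features), with 8 members at an unadjusted p under 0.05 against 12.5%, and without wt none at 90 d it called 7 (0.729% of features).

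**Figure D4:**
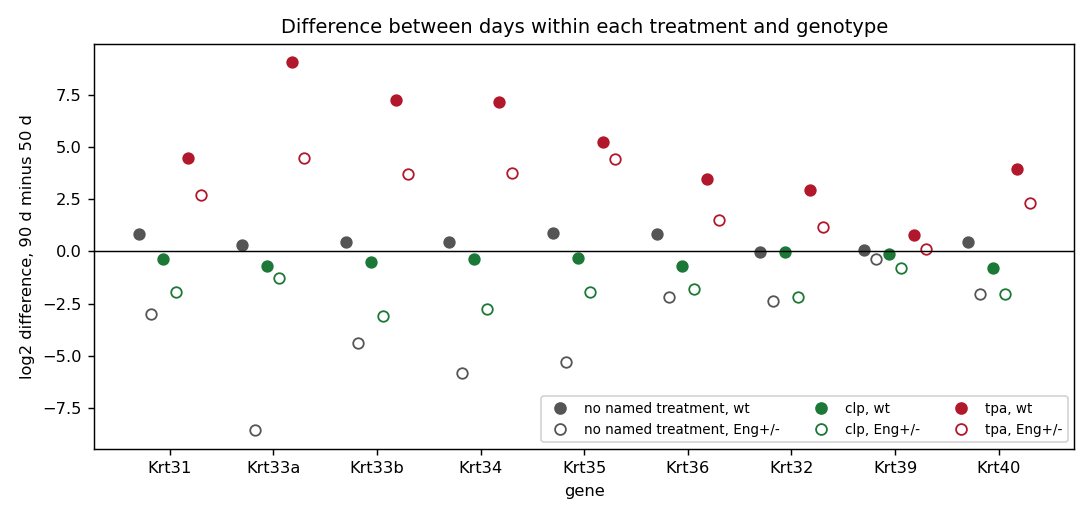
Log2 difference, 90 d minus 50 d, of each type I hair keratin within each treatment and genotype (1 array against 1 array, no error bars); colours give the treatment, filled circles wt and open circles Eng+/-. The tpa points lie above 0 in all 9 genes, the clp points below 0 (5 wt points rest on saturated spots), and for none Eng+/- lies below 0 (median -3.00) and wt near 0 (median 0.44).

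The basic partners of these chains followed a similar order of arrays. Of 7 type II hair keratins Krt81, Krt82, Krt84, Krt86 and Krt87 were tested, and they correlated with the mean of the type I members at 0.925 to 0.995. Their median was -1.84 for genotype (5 of 5 negative), 2.10 for clp (5 of 5 positive) and 3.63 for 90 d against 50 d with tpa (5 of 5 positive). Krt82, a cuticle keratin, rose with clp by 2.44 ± 0.45 (limma, adjusted p = 0.02), the 1 of 5 called, against 5.67% of all features called higher. The 8 keratins of the inner root sheath, the sleeve around the shaft, had medians of -1.53 for genotype, 1.91 for clp and 4.30 for the tpa day difference. Called were 0 of 8, against 9.86% of all features with clp and 0% for genotype and the tpa day difference. So the acidic shaft keratins, their basic partners and the root sheath keratins were low on the same 3 arrays.

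The keratin-associated protein genes and other coding genes that lie between Krt40 and Krt33a, taken by position after the data were examined, gave 31 tested genes of 38, 21 of them named Krtap. They correlated with the mean of the members at 0.78 to 0.99 (median 0.96). Their median clp difference was 3.53, and 15 of 31 were called higher (limma; 5.67% of all features) and 0 lower. Their median was -2.11 for genotype (31 of 31 negative, 0 called) and 4.52 for the tpa day difference (31 of 31 positive, 0 called). Near-identical family members may share a probe's signal, which was not tested.

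The type I keratins of other epithelia, which lie in the same family but not in the hair shaft, did not share the order. The 13 tested of 14 had a median correlation of 0.05 with the hair keratins (-0.35 for Krt19 to 0.83 for Krt13). Their medians were -0.01 for genotype, -0.15 for clp and -0.04 for the tpa day difference. Krt42 fell with clp by 0.92 ± 0.18 (limma, adjusted p = 0.0219), the 1 of 13 called, against 9.86% of all features called in either direction. On each array the median of this list lay between 0.10 and 0.53.

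Most regulators and partners of the shaft also correlated with the members. Of 11 matrix transcription factors and signalling genes 10 were tested, with a median correlation of 0.87 (Msx2 0.97, Hoxc13 0.96, Gata3 0.07). Lef1, an effector of Wnt signals, rose with clp by 1.41 ± 0.18 (limma, adjusted p = 0.01). Foxn1, the factor missing in nude mice, rose by 1.40 ± 0.24 (limma, adjusted p = 0.0165). So 2 of 10 were called, against 5.67% of all features called higher with clp. The LEF1/TCF core searched in the promoters above was absent from those of Krt36 and Krt40, and binding was not measured. Among 9 genes listed as partners of the shaft, Dsg4 and Dsc2, both desmosomal cadherins, rose with clp by 1.35 ± 0.22 and 1.43 ± 0.31 (limma, adjusted p = 0.0156 and 0.0283). These were 2 of 9 called, against the same 5.67% of all features. Padi3, which citrullinates shaft proteins, correlated at 0.99 with the members and had the largest clp difference of that list, 3.11 ± 1.07 (adjusted p = 0.104).

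By likeness over the 12 arrays, the 8 other features closest to the mean of the members had r of 0.994 to 0.996. Those with a symbol were Tchhl1, Krtap5-5, Krt87 and Krtap5-2, and 4 had no symbol. Tchhl1, a trichohyalin-like gene, ran from -6.14 to 1.03 in log2 ratio.

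Other cell types of skin moved partly with these genes. All 6 melanocyte markers were above background on 12 arrays and correlated with the members at 0.84 to 0.96. Their median log2 ratio was -2.55 on Eng+/- none at 90 d, -2.51 and -2.47 on the 50 d tpa arrays, and -0.76 to 1.36 on the other 9. The 6 cycling cell markers correlated at 0.69 to 0.86, and their median was -0.64, -0.42 and -0.27 on those 3 arrays and -0.02 to 0.88 on the others. With clp, the melanocyte genes Mlana (2.04 ± 0.31) and Pmel (1.95 ± 0.32) and the cycling genes Mki67 (1.06 ± 0.22) and Plk1 (0.96 ± 0.20) were called higher (limma, adjusted p = 0.014, 0.0156, 0.0251 and 0.0278), 2 of 6 in each list. Of all features 5.67% were called higher with clp. The part of these cells in the keratin differences was not tested.

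Markers of the tissue around the follicle gave another picture. The 7 tested epidermis markers had a median correlation of 0.05 and array medians of -0.56 to 0.25, and the 5 tested fibroblast markers a median correlation of 0.00 and array medians of -1.43 to 0.42. The 5 tested skeletal muscle markers had a median correlation of -0.47 and array medians of -0.25 to 1.66, lowest on both wt clp arrays. With clp the fibroblast gene Lum was called lower (-1.68 ± 0.23; limma, adjusted p = 0.0126), with 5 of its 12 spots saturated. Lor of the epidermis and the fibroblast gene Col3a1 were called lower too, but were saturated on all 12 arrays and have no fold. The part of tissue composition in the clp difference was not tested.

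**Figure D5:**
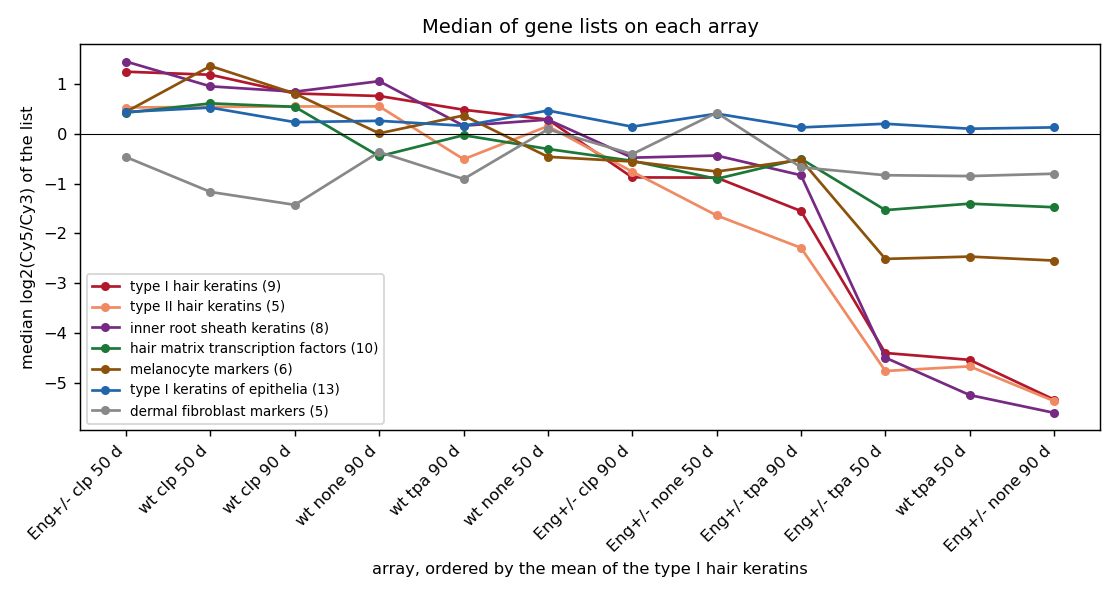
Median log2 ratio of sample to pool of 7 gene lists on the 12 arrays, ordered by the mean of the type I hair keratins; the number of genes tested stands in the legend and lines only join points of a list. Hair keratins of both types and inner root sheath keratins drop together on the last 3 arrays (type I medians -4.41, -4.54 and -5.34), while type I keratins of other epithelia stay between 0.10 and 0.53.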

How the data were processed

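The deposited files give, for each spot and both channels, median, background and processed intensity values with flags, and per the file headers the authors' signals came from Agilent Feature Extraction 10.7.3.1 (10.0 per the submitters' processing notes) with probes annotated to mm9. The deposited value table holds the authors' log10 ratio of processed Cy5 to processed Cy3, and equalled the scanner files' ratio on every spot. Median intensities were processed here with limma 3.58.1 in R 4.3.3: normexp background correction (offset 50), loess within arrays with controls at weight 0, outlier spots left out (975 of 39429 probes lost), and log2 ratios averaged per probe. Probes with Cy5 well above background on at least 2 of 12 arrays were kept (30523), and the brightest probe stood for a gene (25108 features). The labels of all 12 samples put the sample in Cy5 and the pool in Cy3, which was followed, although the design text of the series speaks of Cy3-labelled wt and swapped dyes. One model with genotype and 6 treatment-by-day conditions (5 residual degrees of freedom) and one with all pairwise interactions (2) were fitted. P-values are two-sided (F tests for interactions with treatment), and adjusted ones are Benjamini-Hochberg over all features, with SE from the fit. With 1 array a group, the spread is what the model leaves unexplained, arrays are assumed to vary alike, and precision is limited by their number. The fits were tested on simulated data. All members were named, with the 8 features most like them and, of each list, the lowest and highest gene, and called genes outside that rule were named after their values were seen. Members and lists were chosen with earlier results of these data known. Tried alternatives were the authors' processed signals, median centring, Cy5 alone, no background correction, stricter or no dim filter, averaged probes, saturated spots left out and single arrays left out. 3 more were chosen after seeing the data.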

Additional observations from a re-analysis of the deposited data

Results flagged for a closer look

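The difference between 90 d and 50 d had opposite signs in log2 ratio in both genotypes with tpa and with clp for every member, though in wt clp Krt31, Krt33a, Krt33b, Krt34 and Krt35 were saturated at both days. The tpa minus clp difference of these day differences (log2) was 7.73 for Krt33a, 7.28 for Krt33b, 7.01 for Krt34, 5.96 for Krt35, 4.74 for Krt31, 4.54 for Krt40, 3.73 for Krt36, 3.17 for Krt32 and 0.89 for Krt39. For Krt31, Krt33a, Krt33b, Krt34 and Krt35 these come from ratios at the saturation limit, on wt tpa at 90 d and on clp arrays, and are not measured sizes. For Krt32 the day difference with tpa also had the opposite sign to that on the none arrays in both genotypes, by 3.24, though the wt none value was -0.01. Each treatment stands on a slide of its own, and the difference between tpa and clp alone was not tested. The day by treatment test over the 3 treatments did not pass in any member (limma, adjusted p 0.31 to 0.527), and without wt none at 90 d it called 7 (0.729% of features).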

How the results depend on the processing

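Every genotype difference of the members stayed negative under all alternatives run, and every tpa day difference positive. The count of members called with clp was 1, against 9.86% of all features, and shares of all features called follow in brackets. It was 0 with the authors' processed signals (13%) and where both channels had to be above background on all arrays (14.5%, Krt40 then untested). It was 4 with median centring (2.17%), 2 without saturated spots (9.88%) and 0 without wt none at 50 d and wt clp at 90 d (0%). Without single arrays it was 0 to 8 (1.57 to 20.6%). For tpa the count without single arrays was 0 to 7 (0 to 21.1%). The day comparisons without single arrays can rest on 1 array at a day. Day with tpa gave 2 without the none 90 d pair (0.0757%). Genotype by day gave 6 with median centring (0.585%) and 1 with Cy5 alone (0.116%), and genotype by treatment 5 with median centring, where 42% of all features were called. Over all features the clp count was 2476, against 544 with median centring, 4265 with no background correction and 6190 with Cy5 alone. Median centring moved the median of all features by -0.11 to 0.34. Within pairs, members 2-fold lower in Eng+/- numbered 2 at none 50 d and 3 with clp at 50 d under median centring, and 1 with clp at 50 d by Cy5 alone. Signs turned for Krt40 with tpa (0.14, median centring), Krt35 with tpa (0.0508, saturated spots left out), and by Cy5 alone for Krt39 by day on the none arrays (0.0027) and Krt33a by day with clp (0.15). Without single arrays the tpa difference ran from -2.06 to 0.46 for Krt31, -4.28 to 0.87 for Krt33a, -2.68 to 0.47 for Krt33b, -3.34 to 0.68 for Krt34, -3.00 to 0.16 for Krt35 and -0.96 to 0.33 for Krt40, and the clp difference of Krt35 from -0.0666 to 3.09. The day difference on the none arrays ran from -3.61 to 1.44 for Krt31, -2.46 to 0.0926 for Krt32, -9.27 to 1.02 for Krt33a, -5.12 to 1.18 for Krt33b, -6.73 to 1.31 for Krt34, -5.38 to 0.94 for Krt35, -2.03 to 0.70 for Krt36, -0.58 to 0.27 for Krt39 and -2.08 to 0.49 for Krt40, and with clp from -2.49 to 0.18 for Krt31, -2.08 to 0.13 for Krt33a, -3.31 to 0.19 for Krt34 and -2.30 to 0.0342 for Krt35. The causes were not tested. Without saturated spots Krt33a and Krt34 could not be fitted (5 and 7 arrays left), and the interactions with genotype were not run under that setting or without single arrays. The genotypes were already compared within the 6 treatment-by-day conditions. That comparison is thus paired by condition. Each group has 1 array, so no replicate block could be added, and slide equals treatment.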
